A study of Mus musculus with 14 samples.

Results

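Ap1s2 is an X-linked mouse gene (ENSMUSG00000031367.15, chrX:163909017-163933666 of mm10, plus strand), and it was followed here through 13 of the 2239 single nucleotide polymorphisms (SNPs) of an allele-specific RNA-seq count table. The 13 SNPs are those whose position lies in an annotated exon of Ap1s2. It was 1 of 355 genes with SNPs in its exons alone and 1 of the 247 that reached 10 reads in all libraries and were tested. It was singled out for the fall of its Xi/Xa ratio between day 3 and day 5 in the control cells, that is, it was chosen by the Nons allele ratios of day 3 and day 5, and these values are given as a description, without a test.

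RNA was sequenced from female Setdb1+/+ Xist∆A/+ embryonic stem (ES) cells, derived from E3.5 embryos of 129/C57 dams and CAST sires by the labels, and of 129 dams by the study's text, in 14 libraries of 7 groups with 2 replicates each. All groups carry the Xist∆A deletion on the 129 X, so that the CAST X is the only X that can become the inactive X (Xi) and the 129 X stays active (Xa). The untransduced group was collected on day 0, while still in 2i+LIF medium, and the others on day 3 and day 5 of differentiation, after retroviral transduction with the non-silencing hairpin (Nons) or with the Setdb1 hairpins shSetdb1.4 or shSetdb1.6. The replicates were 2 independent experiments with cells of 1 derived line, so that no p-value covers a spread between lines. The study's text states that XO cells were present. The day of transduction differs between the labels (day 2) and the study's text, and no untransduced group was sampled after day 0. Summed over all SNPs, the libraries held 32972 to 101511 reads, with a median of 74647.5, and the gene-wise median log2 Xi/Xa ratio of a library was between -0.45 and 0.19. Of the X-linked ES cell genes, Nr0b1 was at 73.7 to 161 reads per 10000 in the 8 libraries of day 0 and day 3 and at 1.04 to 4.58 in the 6 libraries of day 5, so that the groups by day did not overlap. Setdb1 itself is not X-linked and was not analysed here, so the knockdown was not checked.

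Ap1s2 encodes a σ1 subunit (σ1B) of the AP-1 clathrin adaptor complex. AP-1 binds cargo and recruits clathrin at the trans-Golgi network and endosomes, and thereby sorts membrane proteins between them. In humans, loss of AP1S2 causes an X-linked intellectual disability. During X inactivation, Xist RNA coats 1 X chromosome of a female cell, its genes fall silent as the cell differentiates, and the Xi/Xa ratio of a silenced gene falls towards 0.

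The SNPs showed only a part of the gene. All 13 lay in 1 exon, the last of 5 exons of the transcript ENSMUST00000112294.8 (chrX:163926903-163929546, 2644 bases), in its 3′ UTR (chrX:163926957-163929546). The other annotated transcripts of the gene, 3 of the 4, end in an exon that starts at position 163932133 and hold none of the SNPs. The values below are therefore those of the transcript with the proximal end. A change in the total of this exon cannot be told apart from a change in transcript usage. Nor can a change in its CAST reads or Xi/Xa ratio be told apart from a change in usage on 1 allele. The SNPs span 1277 bases, and 8 of the 12 gaps between them are under 100 bases, the length of a read, so that a read could be counted at several SNPs, and 7 SNPs remain when those kept are at least 100 bases apart.

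The windows below are shown because they are what separates the X chromosomes in this assay: the SNP with the most reads (chrX:163928471, 753 reads in all libraries), the next (chrX:163927673, 724 reads), and the SNP with the fewest reads apart from the last (chrX:163928726, 393 reads). Each window has 21 bases of the plus strand, which is also the transcript's strand, taken from the GENCODE transcript of GRCm38 (mm10). The capital at position 11, counted from 1 at the 5′ end, is the allele's base, and the substitutions from 129 to CAST are T11G, C11T and T11C in that order.
chrX:163928461-163928481, 129: tagtttgatcTtccactgttg
chrX:163928461-163928481, CAST: tagtttgatcGtccactgttg
chrX:163927663-163927683, 129: tttctctggaCctctccttag
chrX:163927663-163927683, CAST: tttctctggaTctctccttag
chrX:163928716-163928736, 129: gtcacaaagtTtcttgtattg
chrX:163928716-163928736, CAST: gtcacaaagtCtcttgtattg

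By their labels, the transduced groups of a given day differ in the hairpin that the retrovirus carried. The 5′ arms of the 21-base stems are shown to identify the hairpins, all in lower case.
Nons: tctcgcttgggcgagagtaag
shSetdb1.4: acagatgactttgcagacaaa
shSetdb1.6: aaaagcagttctcaagatcta

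Before differentiation, Ap1s2 was read mostly from the CAST X. At day 0 the exon had 472 CAST and 140 129 reads in replicate 1 and 562 CAST and 128 129 reads in replicate 2. The Xi/Xa ratio, (CAST + 1)/(129 + 1), was 3.35 and 4.36, and on the log2 scale it was 1.94 ± 0.27 (SD, n = 2). Both libraries lay far above their gene-wise medians of -0.14 and -0.053, and Ap1s2 was the gene with the third and the second highest ratio among the 247. In the fit over all libraries the log2 ratio at day 0 was 1.94 (SE 0.15), the highest of the 247 genes, against a median of -0.080 (edgeR quasi-likelihood test against a ratio of 1, Benjamini-Hochberg adjusted p = 1.45e-35). Of the 247 genes, 7.69% were called with more CAST than 129 reads at day 0 and 14.2% with fewer. Over the 7 spaced SNPs the CAST share was 78.4% in replicate 1 (exact 95% binomial interval 73.5 to 82.8%) and 80.7% in replicate 2 (76.3 to 84.6%). These intervals cover counting error only, since the reads carried no molecular identifiers and may be copies of the same molecule.

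At day 3 the CAST excess was still present in every group, and the groups overlapped. The Nons libraries had 575 CAST and 100 129 reads and 567 CAST and 130 129 reads (log2 ratios 2.51 and 2.12). The shSetdb1.4 libraries had 375 and 66 and 431 and 101 reads (2.49 and 2.08). The shSetdb1.6 libraries had 377 and 76 and 514 and 97 reads (2.30 and 2.39). All 6 libraries lay between 2.08 and 2.51, and Ap1s2 was among the 3 highest of the 247 genes in each. The lowest of the hairpin libraries of day 3, at 2.08, lay within the range of the day 0 libraries (1.75 to 2.13). The fitted log2 ratio of the hairpin groups was 0.38 higher at day 3 than at day 0 (SE 0.19, edgeR quasi-likelihood test, Benjamini-Hochberg adjusted p = 0.657). In that comparison 0% of genes were called by edgeR and 0 genes by DESeq2, with 18 genes at an unadjusted p under 0.05. The fitted difference of Nons day 3 from day 0 was 0.37, which was not tested because these libraries belong to the contrast that chose the gene.

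By day 5 the CAST excess was smaller in every group, and the exon was closer to equal reads from both X chromosomes. The Nons libraries had 270 CAST and 221 129 reads in replicate 1 and 51 CAST and 29 129 reads in replicate 2 (log2 ratios 0.29 and 0.79). The shSetdb1.4 libraries had 252 and 144 reads and 137 and 124 reads (0.80 and 0.14). The shSetdb1.6 libraries had 336 and 155 reads and 191 and 111 reads (1.11 and 0.78). Every day 5 library lay below every library of day 0 and day 3. CAST still exceeded 129 in all 6, and the gene's ratio was the 3rd to 18th highest of 247 in 5 of them; in shSetdb1.4 replicate 2, where it ranked 129th, its log2 ratio minus the gene-wise median was -0.047. Replicate 2 of Nons is the shallowest library of the series, and its 80 reads left 1 SNP with at least 10 reads.

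**Figure D1:**
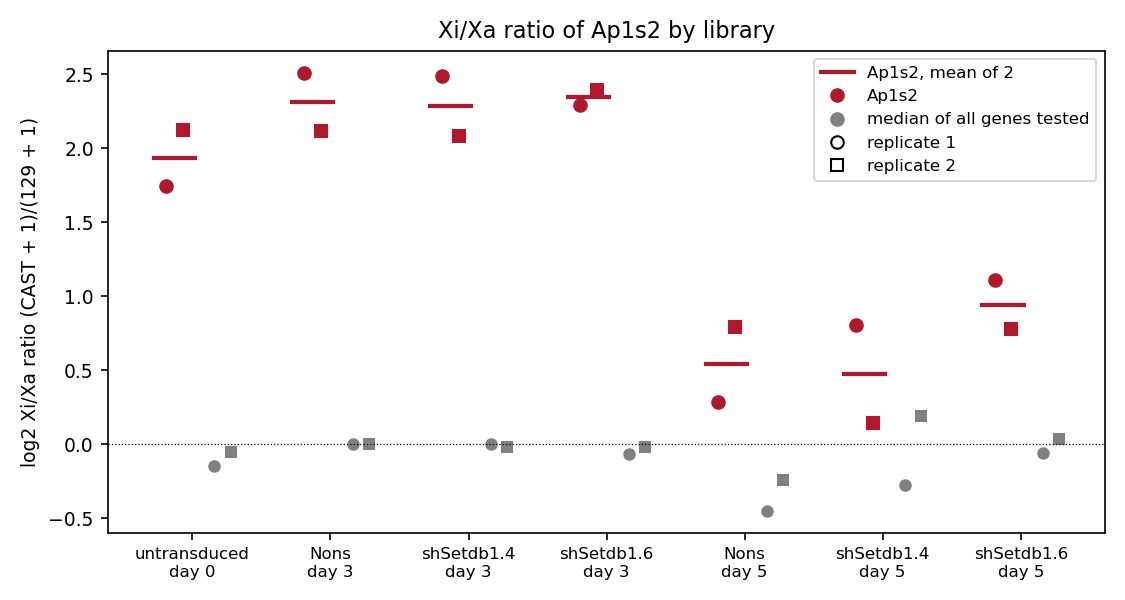
Xi/Xa ratio of Ap1s2 on the log2 scale (vertical axis) in each library of the 7 groups (horizontal axis), in red, with the mean of the 2 replicates as a bar, beside the median ratio of all 247 genes tested in the same library, in grey. The 8 libraries of day 0 and day 3 sit between 1.75 and 2.51 and the 6 of day 5 between 0.14 and 1.11.

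The contrast that chose the gene was the fall in the control. The log2 ratio fell by 2.22 from day 3 to day 5 in replicate 1 of Nons and fell by 1.32 in replicate 2, and the fitted difference was -1.95 (SE 0.24), beside a median of -0.33 over all genes. After subtraction of each library's median the changes were -1.77 and -1.08. The order of the groups by mean log2 ratio was shSetdb1.6 day 3 (2.34), Nons day 3 (2.31), shSetdb1.4 day 3 (2.29), day 0 (1.94), shSetdb1.6 day 5 (0.94), Nons day 5 (0.54) and shSetdb1.4 day 5 (0.47). Neighbours in this order overlapped in their libraries, except day 0 and shSetdb1.6 day 5.

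The libraries with Setdb1 hairpins took no part in that choice, and in them the ratio also fell between day 3 and day 5. The mean log2 ratio was 2.32 ± 0.17 (SD, n = 4) at day 3 and 0.71 ± 0.41 (SD, n = 4) at day 5, and the groups did not overlap (exact permutation test over the 8 libraries, two-sided, p = 0.0286, the smallest p that its 70 arrangements allow). The 4 libraries of a day are 2 hairpins in each of 2 experiments. This and the later permutation tests treated them as exchangeable, so their p-values do not rest on 4 independent experiments. The fitted change was -1.60 (SE 0.16), a 3.02-fold lower ratio, with an adjusted p of 6.97e-20 (edgeR quasi-likelihood test, Benjamini-Hochberg). It was the lowest change of the 247 genes, of which 6.07% were called lower and 10.5% in either direction, and the median change was -0.014. The SE of the ratio fits rests on a spread common to all genes, because the model found no gene-specific part. Relative to the library medians the mean log2 ratio was 2.34 ± 0.17 at day 3 and 0.74 ± 0.55 at day 5 (SD, n = 4 each; exact permutation test, two-sided, p = 0.0286).

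The fall was present under each hairpin taken alone and in both replicates, as it was in Nons. Under shSetdb1.4 the log2 ratio changed by -1.69 and -1.94 within the replicates, and the fitted change was -1.78 (SE 0.23, edgeR quasi-likelihood test, Benjamini-Hochberg adjusted p = 5.72e-12; 2.02% of genes called lower). Under shSetdb1.6 it changed by -1.18 and -1.62, with a fitted change of -1.41 (SE 0.23, adjusted p = 7.39e-08 by the same edgeR test; 2.02% of genes called lower). With the libraries of this contrast alone, the adjusted p for shSetdb1.6 was 0.0888 at a change of -1.40. The changes under the hairpins differed by -0.38 (95% interval -1.02 to 0.26; adjusted p = 0.972 in edgeR's quasi-likelihood test of the difference; 2.43% of genes called in either direction).

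Against day 0, the ratio under the hairpins was lower at day 5. The fitted difference of both hairpins from untransduced cells was -1.21 (SE 0.19), the second lowest of 247 genes, with an adjusted p of 1.45e-08 (edgeR quasi-likelihood test, Benjamini-Hochberg; 5.67% of genes called lower). Without replicate 2 of every group it was -0.79 (adjusted p = 0.0466 by the same edgeR test). For Nons the fitted difference from day 0 was -1.57, given without a test.

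The hairpins were also set against Nons and against each other on the same day. At day 5 the log2 ratio of shSetdb1.4 was 0.52 above that of Nons in replicate 1 and 0.65 below it in replicate 2 (difference -0.65). That of shSetdb1.6 was 0.82 above Nons in replicate 1, and in replicate 2 the difference was -0.016. The fitted difference of both hairpins from Nons was 0.36 at day 5, near the median of 0.35 over all genes, and 0.0085 at day 3. These differences share the Nons libraries that chose the gene and were not tested, and their direction at day 5 rested on which replicate was used. Over the 7 spaced SNPs the day 5 differences were 0.44 and -0.11 with shSetdb1.4, then 0.74 and 0.70 with shSetdb1.6. In the shallow Nons replicate 2 these SNPs held 19 CAST and 17 129 reads, a CAST share of 52.8% with an exact 95% interval of 35.5 to 69.6%. Between the hairpins, the ratio of shSetdb1.4 was 0.46 lower at day 5 (fitted difference -0.46, 95% interval -0.90 to -0.015; edgeR quasi-likelihood test, Benjamini-Hochberg adjusted p = 0.811; 0.405% of genes called in either direction). At day 3 it was -0.081 (95% interval -0.55 to 0.38, adjusted p = 0.976 by the same edgeR test; 0.81% called).

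The reads of each allele showed where the change in ratio lay. Scaled to 10000 reads of the library over all X-linked SNPs, the CAST reads of the hairpin libraries at day 3 were 72.4 and 60.2 with shSetdb1.4, against 95.2 and 87.8 with shSetdb1.6. By day 5 the same groups were at 32.6 and 13.5, and at 33.3 and 26.5, respectively. No day 5 library reached the lowest of day 3, and the means were 78.9 ± 15.7 and 26.5 ± 9.18 (SD, n = 4 each; exact permutation test, two-sided, p = 0.0286). The 129 reads of the same libraries at day 3 were 12.7 and 14.1 with shSetdb1.4, against 19.2 and 16.6 with shSetdb1.6. By day 5 the 129 reads were 18.7 and 12.2, and 15.3 and 15.4, respectively. The 129 groups overlapped throughout, with means of 15.7 ± 2.84 and 15.4 ± 2.63 (SD, n = 4 each; exact permutation test, two-sided, p = 0.943). In the fits, CAST reads changed by -1.51 on the log2 scale (SE 0.26, edgeR quasi-likelihood test, Benjamini-Hochberg adjusted p = 0.000309; 13.8% of genes called lower). The 129 reads changed by 0.049 (95% interval -0.48 to 0.58, adjusted p = 0.887 by the same edgeR test; 42.9% of genes called in either direction), and this value was below 0 in several alternatives. In Nons the CAST reads were 112 and 70.9 at day 3 and 31.0 and 15.5 at day 5. The Nons 129 reads were 19.5 and 16.3 at day 3 and 25.4 and 8.80 at day 5, so that the replicates moved in opposite directions.

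**Figure D2:**
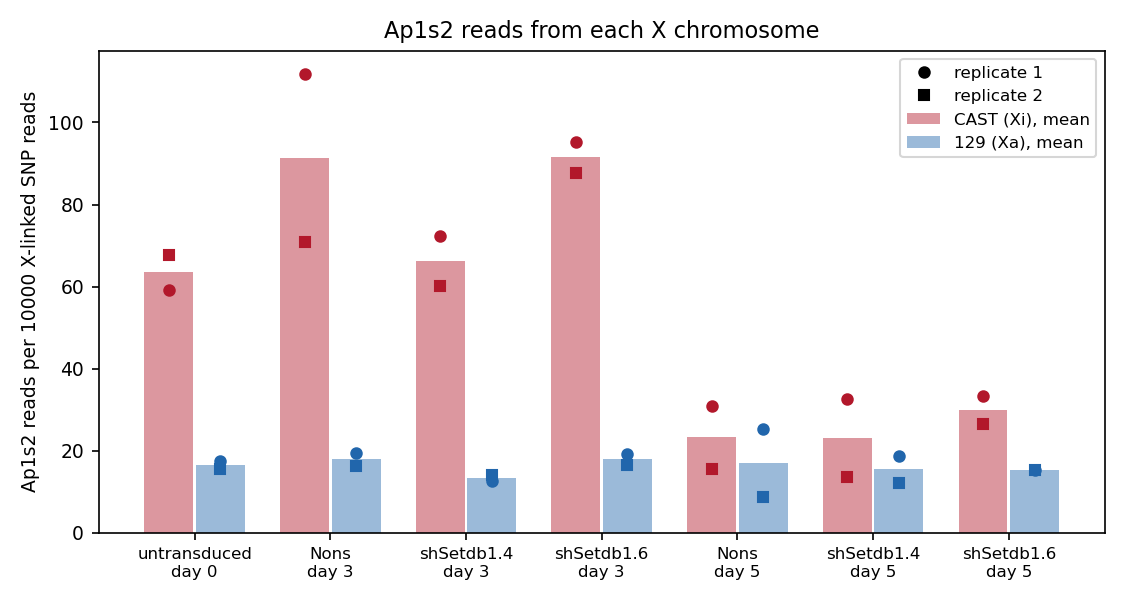
Ap1s2 reads from the CAST X (red) and the 129 X (blue) per 10000 reads over all X-linked SNPs of the library (vertical axis) in the 7 groups (horizontal axis), with points for the libraries and bars for the mean of 2. The CAST reads are 59.1 to 112 in the libraries of day 0 and day 3 and 13.5 to 33.3 in those of day 5, while the 129 reads of the 4 hairpin libraries of day 5 stay within 12.2 to 18.7.

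The total of the exon followed its CAST reads. At day 0 it was 76.7 and 83.2 reads per 10000. At day 3 it was 131 and 87.2 with Nons, 85.1 and 74.3 with shSetdb1.4, then 114 and 104 with shSetdb1.6. At day 5 it was 56.4 and 24.3 with Nons, 51.3 and 25.7 with shSetdb1.4, then 48.6 and 41.9 with shSetdb1.6. Every library of day 5 was again below every earlier library, and replicate 2 was the lower at day 5 in each group. In these bulk libraries a smaller number of cells that express the gene and less RNA per cell cannot be told apart, and a total is relative to the X-linked reads of the library.

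In the hairpin libraries the total was 94.6 ± 18.1 per 10000 at day 3 and 41.9 ± 11.5 at day 5 (SD, n = 4 each; exact permutation test, two-sided, p = 0.0286). The fitted log2 fold change was -1.10 (SE 0.24, edgeR quasi-likelihood test, Benjamini-Hochberg adjusted p = 0.00208), a 2.15-fold lower total and the 13th lowest of 247 genes, of which 17.8% were called lower and 41.7% in either direction. From day 0 to day 3 the log2 fold change was 0.27 (SE 0.29, adjusted p = 0.626 by the same edgeR test; 11.3% called in either direction). From day 0 to day 5 it was -0.83 (SE 0.29, adjusted p = 0.0341 by the same edgeR test; 17.8% called lower). The last call was lost when any of 8 single libraries was left out and held without each of the other 6. Its adjusted p in the same edgeR test was 0.0968 without replicate 1 of day 0 and 0.151 without replicate 2 of day 0. Leaving out a shSetdb1.4 library gave 0.05001 (day 3, replicate 1), 0.0501 (day 3, replicate 2) and 0.0936 (day 5, replicate 2). Leaving out a shSetdb1.6 library gave 0.0534 (day 3, replicate 2), 0.0642 (day 5, replicate 1) and 0.0886 (day 5, replicate 2). Without replicate 2 of every group the change was -0.49 (adjusted p = 0.191).

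The total did not separate the hairpins from Nons. The log2 fold change was 0.070 at day 5 (95% interval -0.57 to 0.71, edgeR quasi-likelihood test, Benjamini-Hochberg adjusted p = 1.0) and -0.21 at day 3 (95% interval -0.83 to 0.41, adjusted p = 0.993). On both days 0% of genes were called by edgeR and 0 genes by DESeq2, and 7 genes at day 5 and 4 at day 3 had an unadjusted p under 0.05. The value at day 5 was 0.81 without replicate 1 of Nons at day 5 and -0.42 without replicate 2 of that group.

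The single SNPs followed the sum. Of the 13 SNPs, 12 had 393 to 753 reads over all libraries and the last, at chrX:163928924, had 58. Over the 12 covered SNPs the log2 ratio of the summed libraries was 1.43 to 2.76 at day 0, 1.85 to 2.95 in the hairpin libraries of day 3 and 0.28 to 1.23 in those of day 5. CAST exceeded 129 at 12 of the 12 in these 3 sets. The change from day 3 to day 5 under the hairpins was below 0 at all 12, between -2.18 and -0.82 with a median of -1.55. In Nons, whose contrast chose the gene, it was between -2.32 and -1.37 with a median of -1.95. These SNPs share reads and are not replicates of each other.

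At the most covered SNP, chrX:163928471, the 4 hairpin libraries of day 3 together had 210 G (CAST) and 27 T (129) reads, and those of day 5 had 92 and 55, a change of -2.18 in log2 ratio. At chrX:163927673 they had 181 and 40 reads at day 3 and 98 and 49 at day 5, a change of -1.16. At chrX:163928726 they had 82 and 19 reads at day 3 and 62 and 50 at day 5, a change of -1.75. The change nearest to 0 among the 12 was at chrX:163928186, with 108 and 26 reads at day 3 and 63 and 27 at day 5 (-0.82). The shSetdb1.4 libraries of day 5 fell just below equal reads at chrX:163928471, with 34 CAST and 35 129 reads. The sparse last SNP went the other way under the hairpins, from 10 CAST and 4 129 reads to 10 and 2, and with these counts its direction cannot be read.

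**Figure D3:**
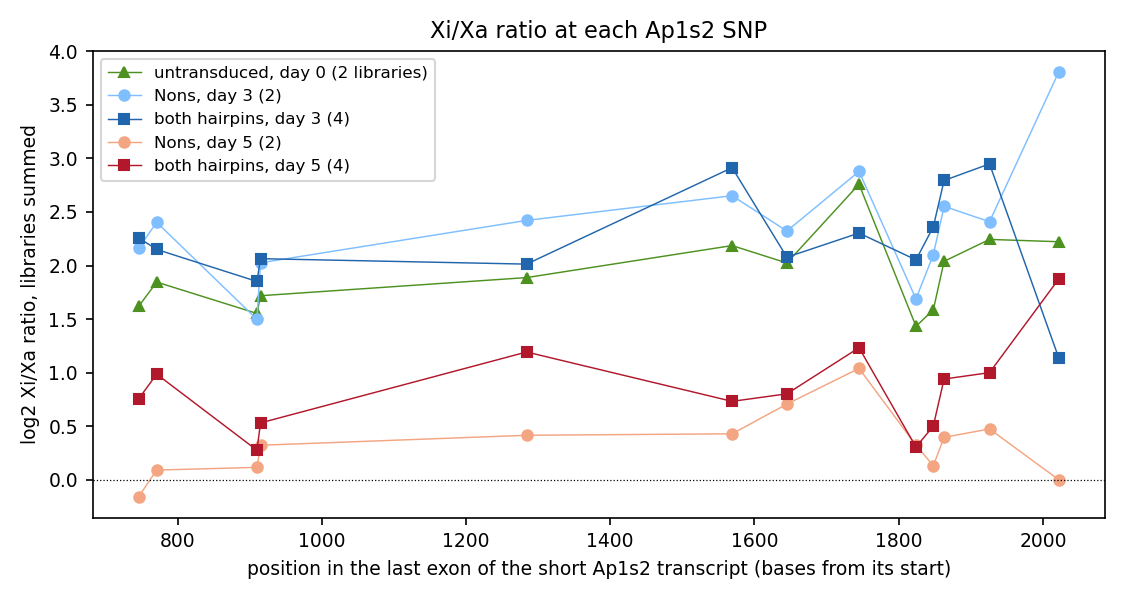
Log2 Xi/Xa ratio at each of the 13 Ap1s2 SNPs (vertical axis) against its distance in bases from the start of the last exon of the transcript that holds them (horizontal axis), for the summed libraries of 5 sets of samples. The day 5 values lie below those of day 0 and day 3 at each of the first 12 SNPs, and the last SNP has 58 reads in all libraries.

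Ap1s2 was then set beside the genes next to it. The 3 tested genes nearest on each side were Txlng, Syap1 and Ctps2 towards the centromere, 876509 to 1079563 bases away, and Zrsr2, Siah1b and Pir on the other side, 1777 to 335705 bases away. In the contrast over both hairpins, 0 of the 6 were called in ratio from day 3 to day 5 by edgeR's quasi-likelihood test (log2 changes from -0.15 for Pir to 0.73 for Syap1), beside 10.5% of all genes. In Nons, without a test, the changes were -1.05 for Syap1, -0.78 for Ctps2, -0.73 for Pir, -0.45 for Siah1b and 0.27 for Txlng. The median over all genes was -0.33. The log2 ratio of Zrsr2 in Nons was -0.044 and -0.18 at day 3 and -0.42 and -0.23 at day 5. By hairpin, Txlng was called higher under shSetdb1.4 (2.03, edgeR quasi-likelihood test, Benjamini-Hochberg adjusted p = 0.0212) and changed by -1.05 under shSetdb1.6 (adjusted p = 0.428 by the same edgeR test), with 4 to 24 CAST reads per hairpin library, and these changes differed (adjusted p = 0.0143 by the same edgeR test). Zrsr2, which encodes a splicing factor related to U2AF, is the closest. Its log2 ratio was between -0.39 and -0.049 in the 4 hairpin libraries of day 3 and between -0.46 and 0.25 in those of day 5, so that the days overlapped. The log2 ratio of Ap1s2 minus that of Zrsr2 was 2.54 ± 0.22 at day 3 and 0.81 ± 0.65 at day 5 (SD, n = 4 each; exact permutation test, two-sided, p = 0.0286). Against the mean of the 6 neighbours the difference was 2.86 ± 0.41 at day 3 and 1.10 ± 0.55 at day 5 (SD, n = 4 each; exact permutation test, two-sided, p = 0.0286). Without Txlng, an alternative chosen after seeing the data, it was 2.70 ± 0.22 and 1.00 ± 0.61 (SD, n = 4 each; exact permutation test, two-sided, p = 0.0286). These differences contain the same Ap1s2 ratios as the test above, so they are not independent of it. In total reads the neighbours went both ways: Zrsr2 (-0.72) and Siah1b (-1.12), a ubiquitin ligase gene, fell, Ctps2 (1.64), a CTP synthase gene, rose, and the other 3 did not pass the test, beside 41.7% of all genes called.

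**Figure D4:**
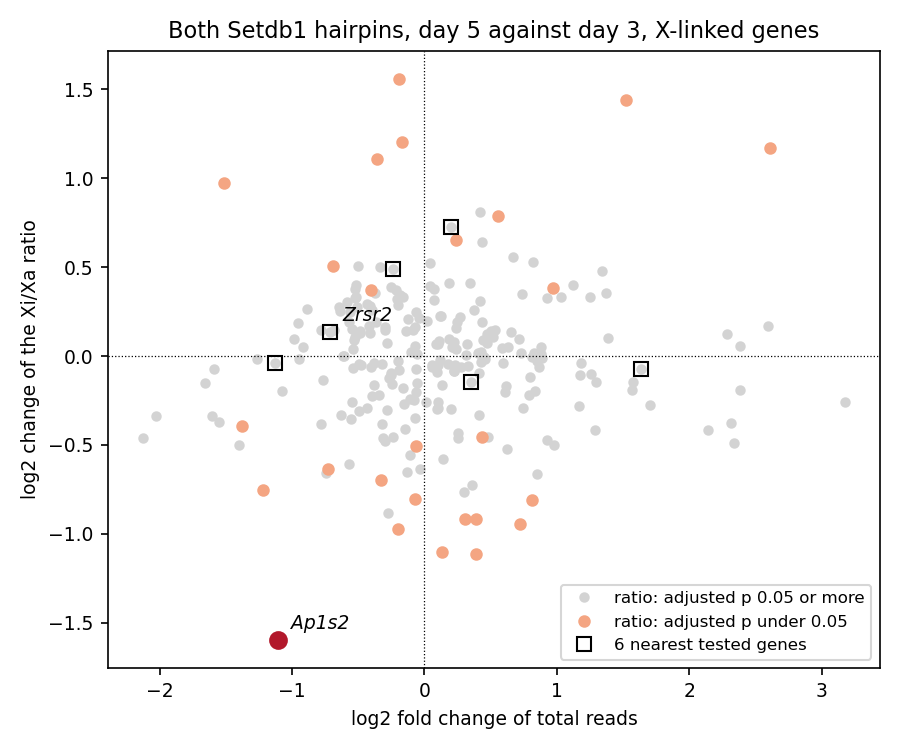
Change of the log2 Xi/Xa ratio (vertical axis) against the log2 fold change of total reads (horizontal axis) from day 3 to day 5 in the libraries with Setdb1 hairpins, with 1 point for each of the 247 genes tested. Ap1s2 (red) is at -1.60 and -1.10, the lowest point on the ratio axis, and its 6 nearest tested genes (squares) lie between -0.15 and 0.73 on that axis.

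Other X-linked genes of membrane traffic were followed on a list of 26 names, of which 11 were tested. In the hairpin libraries from day 3 to day 5, 2 of the 11 rose in Xi/Xa ratio, 0 fell and 9 did not pass the test (4.45% of all genes were called higher and 6.07% lower), with a median log2 change of 0.066 beside -0.014 over all genes. The ratio rose for Atp6ap2, an accessory protein of the vacuolar proton pump (0.65, SE 0.20, edgeR quasi-likelihood test, Benjamini-Hochberg adjusted p = 0.0188), and for Gla, the lysosomal alpha-galactosidase (1.11, SE 0.38, adjusted p = 0.0385 by the same edgeR test). Ocrl, a clathrin-binding phosphoinositide phosphatase and the only covered gene of the clathrin and adaptor group, changed by 0.066 (adjusted p = 0.924 by the same edgeR test). In total reads 4 of the 11 rose (23.9% of all genes were called higher), among them the endosomal chloride transporter gene Clcn5 (1.58), Rab9 (0.50), a Rab GTPase of late endosomes, and Lamp2 (0.74) of the lysosomal membrane. Bcap31, of the endoplasmic reticulum, fell (-0.55), and 6 did not pass the test. At day 0, 0 of the 11 were called with a CAST excess, and Ocrl (-0.68) and Bcap31 (-0.54) were called with fewer CAST than 129 reads, beside 7.69% and 14.2% of all genes.

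The genes whose values were most like those of Ap1s2 over the 14 libraries were found by Pearson correlation, given as a description. In log2 ratio centred on the library median they were Zdhhc9 (0.84), Pnma5 (0.84) and Gm364 (0.79). In log2 reads per 10000 they were Slc6a8 (0.94), Pnma5 (0.93) and Morc4 (0.92). The libraries share depth and day of differentiation. From day 3 to day 5 under the hairpins the fitted change in ratio was -0.91 for Zdhhc9, -0.63 for Pnma5 and -0.46 for Gm364, a direction largely set by choosing these genes on the same libraries. It was 0.98 for Slc6a8 and -0.20 for Morc4.

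Markers of the state of the cells were measured over the same days. Of the X-linked ES cell genes, Dusp9 rose in total reads from day 3 to day 5 under the hairpins (0.86). Of 8 differentiation genes, 4 were tested, of which Bex2 rose (0.63), Bex1 (-0.52) and Gpc4 (-1.59) fell and Gpc3 did not pass the test, beside 41.7% of all genes called in either direction. In Xi/Xa ratio neither Dusp9 nor any of these 4 genes was called from day 3 to day 5. The part of the change of cell state in the fall of Ap1s2 was not tested.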

How the data were processed

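Single-end 100 bp reads of TruSeq libraries were mapped by the authors to mm10 with Subread, and the deposited counts are reads with the 129 (reference) or CAST base at each X-linked SNP, from samtools pileup at SNPs of the Mouse Genomes Project. The labels' processing notes name CASAVA 1.8.2. Counts are raw, replicates were not pooled, and 4 further per-sample columns were not used. Use of strand in the counting is not given in the sources used here.

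SNPs were assigned to genes by the exons of GENCODE M21 (mouse, release 21). The 31 SNPs in exons of 2 genes and the 35 outside exons stayed out of gene results. Reads were scaled to 10000 per library total.

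Ratios were tested with edgeR 4.0.16 (R 4.3.3), by the quasi-likelihood test on CAST and 129 counts with library terms, the allele effect of each group and that of the replicate number, since the study reports independent experiments (common dispersion 0.00665). Total counts were fitted with TMM normalization and no block (0.0408), and CAST and 129 counts with the same effective library sizes. Genes needed 10 reads in every library, p-values were adjusted over all 247 genes, and those under 0.05 were called. The models were tested on simulated data. DESeq2 1.42.0 was an alternative. Exact permutation tests used scipy 1.17.1 and took no account of hairpin or replicate number. Values were tabulated with Python 3.11.15, numpy 2.4.6 and pandas 2.3.3.

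Genes named were Ap1s2, the covered members of the trafficking and marker lists, the 3 tested genes nearest on each side and the 3 most correlated genes in each measure. The gene, the lists and the rules were chosen with earlier results of these data known. Comparisons that share the Nons ratios of day 3 or day 5 were not tested. Some members of the lists are not reported here.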

Additional observations from a re-analysis of the deposited data

How the results depend on the processing

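Of 448 alternative values, 414 counted as the same, 11 lost the threshold, 21 changed sign and 2 moved by more than the replicate spread or SE. A tested value counted as the same when it kept its direction and side of the threshold. An untested value did so when it kept its direction and moved by less than the replicate spread or SE. For single hairpins with a replicate left out, direction alone was used. With only the libraries of a contrast, the ratio under shSetdb1.6 from day 3 to day 5 was -1.40 (adjusted p = 0.0888) and the total under both hairpins from day 0 to day 5 was -0.80 (adjusted p = 0.0569), with fewer samples in the fit. Centred on the library median, the day 5 ratio difference of both hairpins from Nons was 0.043. With spaced SNPs the day 3 difference was -0.021. The change of 129 reads from day 3 to day 5 was -0.011 without TMM and -0.055 with spaced SNPs.

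Left-out replicates or single libraries (the latter chosen after seeing the data) gave these ranges. The ratio under both hairpins from day 3 to day 5 stayed between -1.78 and -1.44, and the total between -1.37 and -0.92. The total from day 0 to day 5 was -1.22 to -0.49 and lost the call in 9 of 16. The ratio of both hairpins at day 3 against day 0 was 0.069 to 0.71. The ratio of shSetdb1.4 against shSetdb1.6 was -0.31 to 0.19 at day 3 and -0.79 to -0.19 at day 5. The difference between their changes from day 3 to day 5 was -0.71 to -0.11. The ratio of both hairpins against Nons was -0.34 to 0.68 at day 5 and -0.15 to 0.15 at day 3. The total against Nons was -0.42 to 0.81 at day 5 and -0.49 to 0.13 at day 3. The 129 reads were -0.098 to 0.16. The cause was not tested. Where a group was left with 1 library, that library was assumed to vary like the others.

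Same-numbered libraries deviated together by a mean correlation of 0.0514 in ratios (lowest -0.139) and 0.209 in totals (lowest -0.0548) over genes. Without the replicate block the ratio under both hairpins from day 3 to day 5 was -1.59 (adjusted p = 1.09e-08), with 16 genes called in place of 26; with a replicate block the total was -1.13 (adjusted p = 0.000166), with 122 genes called in place of 103, and no call for Ap1s2 changed. DESeq2 called 14 and 103 genes in these comparisons. Depth limits Nons day 5 replicate 2, with 80 reads.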
